A study of Mus musculus with 6 samples.

Results

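The genes described here encode the activators, inhibitors and ubiquitin-conjugating partners of the anaphase-promoting complex, with the securin and separase pair that it controls. They are Cdc20, Fzr1, Fbxo5, Fbxo43, Ube2c, Ube2s, Pttg1 and Espl1, chosen by gene symbol, and all 8 are present among the 25239 genes of the count table. Transcripts were counted in 6 single-oocyte libraries of the mouse. The oocytes were at the germinal vesicle (GV) stage, that of prophase arrest, in which the nucleus is intact. The oocytes came from female CD-1 mice, an outbred stock, aged 4 to 6 weeks. Complexes of oocytes and cumulus cells were injected with water (3 libraries) or with a mixture of phthalate metabolites (3 libraries), the breakdown products of plasticizers, whose composition and dose the labels do not give. Both groups were then kept in maturation medium with 10% serum, 200 mIU/mL follicle-stimulating hormone and 50 µg/mL pyruvate, and were collected while still at the GV stage. Smart-seq3, a single-cell method that primes reverse transcription with oligo(dT), was used for all libraries. The comparison addresses how the mixture alters the oocyte's messenger RNA. The labels number the libraries of a group 1 to 3 but do not say which animal or culture each came from, so a group is treated as 1 sample. The wording on lysis also allows a reading in which each group was a single oocyte, so the libraries of a group may not be separate oocytes. No p-value is given for these reasons, and spread within a group, or groups that do not overlap, may be technical.

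The anaphase-promoting complex, or cyclosome (APC/C), is a ubiquitin ligase that marks cyclin B and securin for destruction by the proteasome. It needs a co-activator, either Cdc20 or Cdh1 (the product of Fzr1), and it is held back by Emi1 (Fbxo5) and Emi2 (Fbxo43). In GV oocytes the Cdh1-bound form keeps cyclin B low and helps to hold prophase arrest. After meiosis resumes, the Cdc20-bound form removes securin and cyclin B so that separase can cut cohesin, and Emi2 later holds the egg in metaphase until fertilization.

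The genes lie on 6 chromosomes of the mouse genome (GRCm38, the mm10 build named in the submitters' processing notes), with positions taken from RefSeq. Pttg1 is at chr11:43420244-43427463 and Espl1 at chr15:102296254-102324357. Ube2c is at chr2:164769929-164772902 and Ube2s at chr7:4808014-4812340. Cdc20 is at chr4:118432901-118437343, Fzr1 at chr10:81366879-81378370, Fbxo5 at chr10:5799158-5805465 and Fbxo43 at chr15:36150060-36169940. The 3′ end of Cdc20 overlaps that of Elovl1 on the opposite strand by 53 bases, and the use of strand in counting is not given in the sources used here. Fbxo43 overlaps a small nuclear RNA gene, Gm22979.

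Many genes of the mitotic machinery share a promoter element called the cell cycle genes homology region (CHR, letters TTTGAA) together with CCAAT boxes. RefSeq promoters of 300 bases were found for 7 of the 8 genes. On either strand, TTTGAA was present in 4 of these 7 (Cdc20, Espl1, Ube2c and Fbxo5) and in 17.9% of all 32851 promoters. CCAAT was present in 5 of the 7 (the same 4 and Fzr1) and in 37.4% of all promoters. The promoter table places each promoter at 1 start of the gene. For 5 of the 7 genes this is the outer end of the RefSeq gene, while for Espl1 it lies 39 bases and for Pttg1 1482 bases inside it. The 100 bases before that start are shown for the 3 genes with the lowest phthalate to water ratios (Ube2c, Pttg1 and Espl1) and for Cdc20, to set windows with these letters beside one without them. Capitals mark these letters or their reverse complements.
Ube2c (chr2:164769829-164769928, plus strand): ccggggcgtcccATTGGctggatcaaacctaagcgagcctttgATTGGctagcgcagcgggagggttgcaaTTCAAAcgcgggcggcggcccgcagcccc
Espl1 (chr15:102296193-102296292, plus strand): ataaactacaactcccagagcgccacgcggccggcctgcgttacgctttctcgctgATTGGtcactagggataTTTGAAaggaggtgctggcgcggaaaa
Cdc20 (chr4:118437344-118437443, minus strand): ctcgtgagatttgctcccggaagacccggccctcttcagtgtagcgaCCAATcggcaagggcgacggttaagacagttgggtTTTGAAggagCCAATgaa
Pttg1 (chr11:43425982-43426081, minus strand): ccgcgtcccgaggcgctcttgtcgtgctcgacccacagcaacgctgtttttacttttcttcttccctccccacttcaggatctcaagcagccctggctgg
The CHR letters start 29, 27 and 18 bases before the table's start of Ube2c, Espl1 and Cdc20. The 300 bases of the Pttg1 window hold neither set of letters, and the sequence before its outer gene end was not analysed here.

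Oocytes also store messages whose poly(A) tails are lengthened later through the cytoplasmic polyadenylation element (TTTTAT or TTTTAAT) near the 3′ end. Within the last 100 bases of the longest coding transcript these letters were found in 2 of the 8 genes, Cdc20 and Fbxo5. They were found in 20.6% of 4532 tested genes with a coding transcript. The polyadenylation signal AATAAA was absent from those 100 bases in Fzr1 and Fbxo43. Whether their annotated ends are the ones used was not tested. Cdc20 held TTTTAT in 2 overlapping copies beside the polyadenylation signal AATAAA. The stretch is shown because Cdc20 had the most copies of the 8, and capitals mark both kinds of letters.
Cdc20, 40 to 17 bases from the transcript end: TTTTATTTTATtttttctAATAAA

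A library held from 252267 to 300917 gene counts, and from 292 to 753 counts of ERCC spike-in RNA. Of 12 oocyte markers, 11 had counts, and together they took from 2.24% to 2.79% of a library, while Sohlh1 was at 0 in all libraries. Of 23 cumulus and granulosa markers, 12 were at 0 in every library, Amh and Foxl2 among them. Nearly all counts of that list came from Esr2 and Nr5a2, and the other 21 markers had 11 counts with water and 16 with phthalate, 11 of them in phthalate library 2. Within groups, no pair of libraries was as close as sampling noise alone would make it, with a chi-square per degree of freedom from 1.17 to 2.38 on counts halved to read pairs, the highest for phthalate libraries 1 and 3.

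All 8 genes were detected in every library, and all passed the filter on low counts (edgeR's filterByExpr) that defined 4644 tested genes. Levels were compared between genes as CPM per kb of the longest coding transcript, where CPM is a count scaled to a library total of 1000000. Securin, the inhibitor of separase encoded by Pttg1, was the most abundant, at 760, 949 and 983 CPM per kb in water libraries 1, 2 and 3. This placed its mean at percentile 99.5 of 11858 genes with a count and a coding length. Ube2s, the enzyme that extends ubiquitin chains, was next, with 249, 175 and 194 CPM per kb. Fbxo5 (149, 130 and 138 CPM per kb) lay below every Ube2s value in the water group.

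Ube2c, the enzyme that starts ubiquitin chains, had 137, 77.4 and 94.9 CPM per kb in the water libraries, a range that overlapped that of Fbxo5. Espl1, which encodes separase (40.1, 53.4 and 50.3), Fzr1 (53.4, 23.9 and 46.1) and Cdc20 (47.6, 31.5 and 41.3) could not be ordered, since their ranges in CPM per kb overlapped. Fbxo43 was the lowest, at 20.2, 22.2 and 15.7 CPM per kb, below every other gene in every water library. It was also the lowest in each phthalate library, at 19.7, 21.8 and 15.3. The place of Ube2s depended on the transcript taken: with its longest transcript of any type, which retains an intron, Ube2s came after Fbxo5 and Ube2c.

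**Figure D1:**
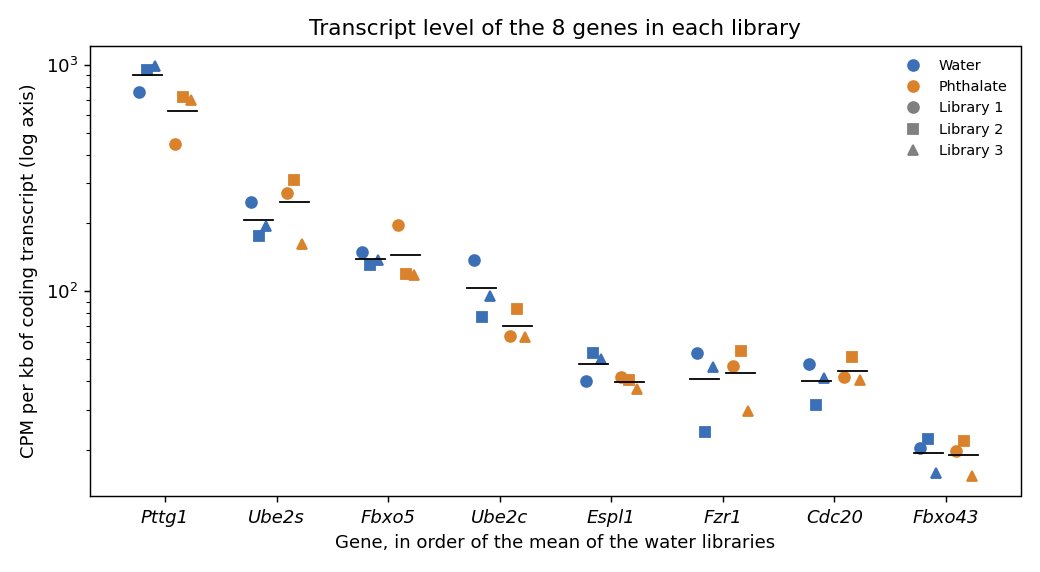
Level of each gene in each library, in CPM per kb of the longest coding transcript on a log axis, for 3 water (blue) and 3 phthalate (orange) libraries, with the mean of each group as a line. Pttg1 is highest in every library and Fbxo43 lowest in every library, and the 3 phthalate values of Pttg1 lie below the 3 water values.

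Between the groups, securin (Pttg1) and the chain-starting enzyme Ube2c had phthalate to water ratios whose counting intervals lay below no difference. The intervals of the other 6 genes, Ube2s, Espl1, both activators and both inhibitors, included no difference. Of all 4644 tested genes, 9.24% had an interval that excluded no difference, 4.41% below it and 4.82% above it. The log2 ratio of phthalate over water was taken from summed counts divided by group totals scaled with TMM (a correction for library composition), so 0 means no difference. The 95% intervals below come from counts halved to read pairs and cover counting error only. On the deposited counts, not halved, the interval of Ube2s also excluded 0, as did those of 22.7% of tested genes (11.1% below and 11.6% above). None of the 8 genes reached a 1.5-fold difference (0.585 on the log2 scale) in either direction, while 15.1% of the 4644 tested genes did, most of them genes of few counts. With 1 library left out, up to 2 genes did, Pttg1 and Ube2c without phthalate library 2, Pttg1 without water library 1 or phthalate library 3, and Ube2c without water library 2. With these 4 libraries left out in turn, from 17.9% to 19.6% of tested genes did. The median log2 ratio over the 8 genes was 0.02 and the mean was -0.08, with 4 genes above 0 and 4 below. Over all tested genes the median log2 ratio was 0.01.

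Pttg1 had 343, 478 and 467 counts with water (libraries 1, 2 and 3, the order used throughout) and 189, 357 and 321 with phthalate. In CPM this was 1273, 1588 and 1646 against 749, 1210.0 and 1168. All 3 phthalate values lay below all 3 water values, with phthalate library 1 far below the others. Pttg1 was the only gene of the 8 whose groups did not overlap in CPM. Among tested genes 10.0% did not overlap, 5.49% with phthalate below water and 4.52% with phthalate above.

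The summed counts of Pttg1 were 1288 with water (95% exact Poisson interval 1190.4 to 1391, on read pairs) and 867 with phthalate (788 to 954), a log2 ratio of -0.50 (95% interval -0.68 to -0.32), or 1.41-fold lower with phthalate. Of the 397 other tested genes with a mean count from 100 to 500, 3 had a log2 ratio as low as that of Pttg1 or lower, and 11 were as far from 0 in either direction. From the 5th to the 95th percentile, the log2 ratios of genes with such counts ran from -0.29 to 0.39. The difference leaned on phthalate library 1, without which the log2 ratio was -0.30, and without phthalate library 3 it was -0.62. With TMM scaling the Pttg1 groups overlapped, since phthalate library 3 then had 1249 CPM and water library 1 had 1234.

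Phthalate library 3 had the lowest CPM of all 6 libraries for 5 of the 8 genes (Fbxo43, Fbxo5, Espl1, Ube2c and Ube2s) and the highest for 0 of them. With TMM scaling it was the lowest for Ube2s only (214.0 CPM). Fbxo43, Fbxo5, Espl1 and Ube2c were then lowest in water library 3, phthalate library 2, water library 1 and phthalate library 1. Without TMM scaling, phthalate library 1 was the lowest for Pttg1 and the highest for Fbxo5 among the 8. Oocyte markers in phthalate library 1 lay on both sides of the other libraries. It had the lowest CPM of all 6 libraries for 5 of the 11 markers with counts (Bmp15, Zp2, Zp3, Figla and Dppa3) and the highest for 1, Ooep, with 3857 CPM against 2779 to 3834. Its share of counts in the whole marker list, 2.31%, was within the range of the other libraries. Zp3, which encodes an egg coat protein, had 2279 CPM there and from 3041 to 4292 in the other libraries. Dppa3, a maternal factor that guards DNA methylation in the zygote, had 2501 CPM there and from 3308 to 4016 elsewhere. The part of these differences in the Pttg1 result was not tested.

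**Figure D2:**
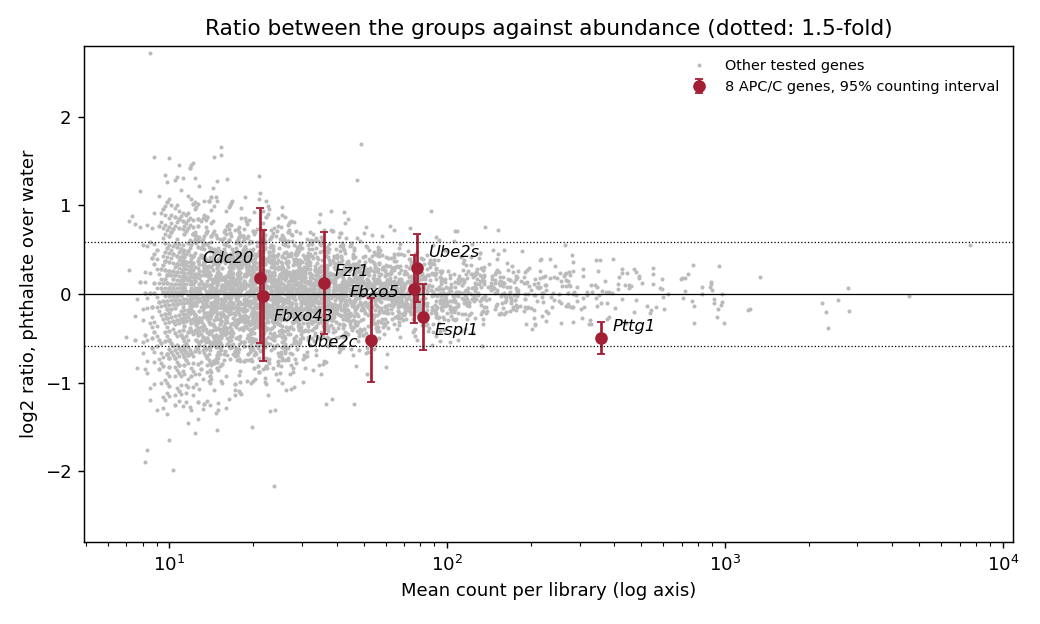
Log2 ratio of phthalate over water against the mean count per library (log axis) for the tested genes, with the 8 APC/C genes in red and their 95% counting intervals. Grey points narrow toward 0 at high counts, and Pttg1 (-0.50) and Ube2c (-0.52) each sit below most of the genes with like counts.

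Espl1 encodes separase, the protease that securin inhibits. Its counts were 72, 107 and 95 with water and 70, 80 and 68 with phthalate. In CPM the ranges of the groups overlapped, from 267 to 356 for water and from 247 to 278 for phthalate. The log2 ratio was -0.26 (-0.63 to 0.12), so at this depth no difference could be detected. Left-out libraries gave from -0.38, without water library 1, to -0.15, without water library 2.

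Securin and separase act as a pair, so their counts were also compared within each library, which removes the library total. There were 4.76, 4.47 and 4.92 Pttg1 counts per Espl1 count with water and 2.70, 4.46 and 4.72 with phthalate. Phthalate library 1 stood apart, and the ratios of the other 5 libraries lay close together. The log2 change in this ratio was -0.24 over all libraries and -0.04 without phthalate library 1.

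Ube2c had 81, 51 and 59 counts with water and 35, 54 and 38 with phthalate. In CPM it was 301, 169 and 208 against 139, 183 and 138. The groups overlapped through water library 2 and phthalate library 2, and water library 1 was the highest of all. The summed counts were 191 (156 to 234) and 127 (98.6 to 164). The log2 ratio was -0.52 (-0.99 to -0.04), or 1.43-fold lower with phthalate. Of the 954 other tested genes with a mean count from 40 to 100, 23 had a log2 ratio as low or lower, and 56 were as far from 0 in either direction. The 5th percentile of the log2 ratios at such counts was -0.42. Without water library 1 the log2 ratio of Ube2c was -0.28, and without water library 2 it was -0.68.

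Ube2s extends the chains that Ube2c starts. Its counts were 83, 65 and 68 with water and 85, 113 and 55 with phthalate. Phthalate library 3 had the lowest CPM of all (200.1) and phthalate library 2 the highest (383), so the groups overlapped. The summed counts were 216 (177 to 261) with water and 253 (209.9 to 300.0) with phthalate. The log2 ratio was 0.30 (-0.09 to 0.68), so no difference could be detected with counts halved to read pairs, while the deposited counts gave an interval from 0.03 to 0.57. The log2 ratio was 0.12 without phthalate library 2 and 0.49 without phthalate library 3.

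The chain-starting and chain-extending enzymes were also set against each other within each library. Their log2 ratios have opposite signs, so the change of their quotient is larger than either by construction. There were 0.976, 0.785 and 0.868 Ube2c counts per Ube2s count with water and 0.412, 0.478 and 0.691 with phthalate. All phthalate libraries lay below all water libraries, with summed ratios of 0.502 and 0.884. The log2 change was -0.82, and from -0.98 to -0.69 with 1 library left out.

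The activator Cdc20 against Ube2c also separated the groups, with 0.284, 0.333 and 0.356 Cdc20 counts per Ube2c count with water and 0.543, 0.500 and 0.526 with phthalate. The log2 change was 0.70, and from 0.59 to 0.78 with 1 library left out. Here too the log2 ratios of the genes (0.19 and -0.52) have opposite signs, which enlarges the change by construction. No counting interval was computed for the change of any pair, and the left-out ranges do not cover counting error. Ube2c against Ube2s and Cdc20 against Ube2c were the only 2 of the 28 pairs among the 8 genes whose groups did not overlap, or 7.14%. Of all pairs of 4598 tested genes with counts in every library, 10.3% did so. The share of separated pairs was thus below the background, and both separated pairs contain Ube2c. Groups of 5 libraries separate more easily: with 1 left out, from 18.8% to 23.5% of all pairs separated. Of the 28 pairs, 11 (39.3%) then separated without phthalate library 3, 8 without water library 1, 7 without water library 2 and 3 (10.7%) without any 1 of the other three.

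**Figure D3:**
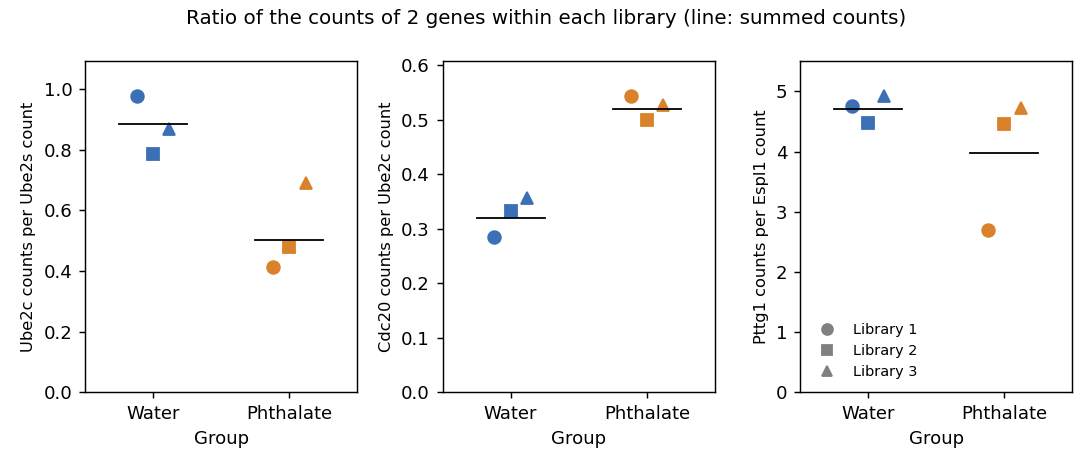
Counts of one gene per count of another within each library, for Ube2c over Ube2s, Cdc20 over Ube2c and Pttg1 over Espl1, by group, with the ratio of the summed counts as a line. The groups are apart in the first and middle panels, and in the last panel phthalate library 1 (2.70) lies below the other 5 libraries.

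The groups overlapped for both activators. Cdc20 had 23, 17 and 21 counts with water and 19, 27 and 20 with phthalate, and the ranges overlapped. Its log2 ratio was 0.19, with an interval from -0.55 to 0.97 that leaves differences of either sign undetected at this depth, and it ranged from 0.05 without water library 2 to 0.31 without water library 1. Fzr1 had 44, 22 and 40 counts with water and 36, 49 and 25 with phthalate. The spread of Fzr1 within a group, 2.23 times between water libraries in CPM, was wider than the difference between groups. Its log2 ratio was 0.13 (-0.45 to 0.70), and it was -0.15 without water library 2 and -0.05 without phthalate library 2.

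The inhibitors had the ratios nearest to 0. Fbxo5, which encodes Emi1, had 78, 76 and 76 counts with water and 96, 68 and 63 with phthalate. Its water values were the most even of the 8 genes in CPM (highest over lowest 1.15), and phthalate library 1 was the highest of all 6. The log2 ratio of Fbxo5 was 0.05 (-0.33 to 0.45), and -0.19 without phthalate library 1.

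Fbxo43, which encodes Emi2, had 22, 27 and 18 counts with water and 20, 26 and 17 with phthalate. The values of the groups were nearly the same, and the log2 ratio was -0.02 (-0.76 to 0.73). With so few counts, a 1.5-fold difference in either direction lies within that interval. Left-out libraries gave from -0.14, without water library 3, to 0.12, without water library 2.

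**Figure D4:**
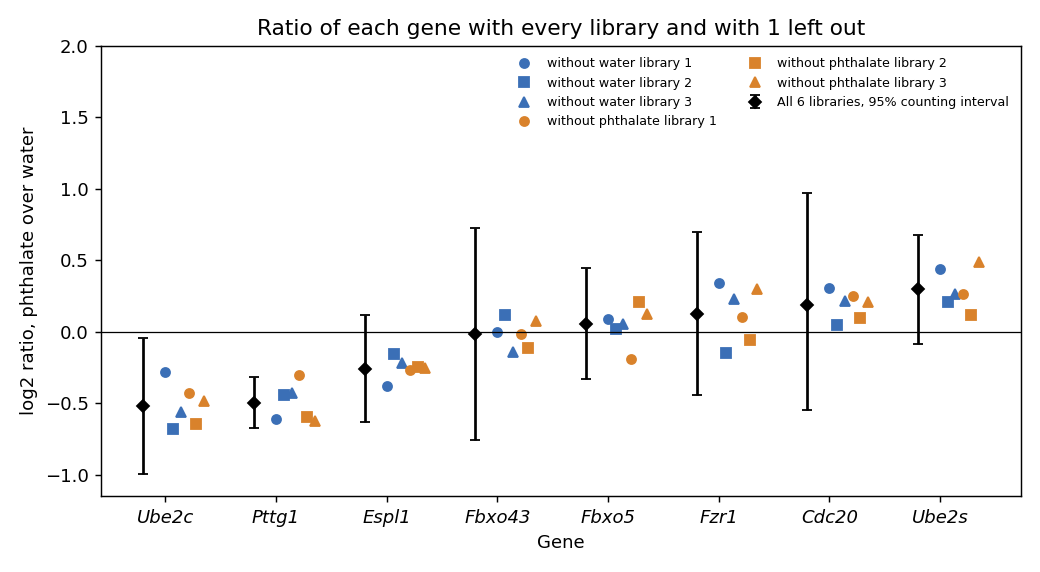
Log2 ratio of phthalate over water for each gene with all 6 libraries (black, 95% counting interval) and with each library left out in turn (blue for a water library, orange for a phthalate library). Ube2c, Pttg1 and Espl1 stay below 0 and Cdc20 and Ube2s above 0 throughout, while Fbxo43, Fbxo5 and Fzr1 lie on both sides of 0.

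Summed over the 8 genes, the share of gene counts was 0.277%, 0.280% and 0.297% with water and 0.218%, 0.262% and 0.221% with phthalate. The groups did not overlap in this sum. Without Pttg1 the shares were 0.150%, 0.121% and 0.133% against 0.143%, 0.141% and 0.104%, and the groups overlapped. The lower sum was thus carried by Pttg1.

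The rest of the pathway was described with 3 lists: the APC/C subunits, other regulators of the complex, and other proteins it marks for destruction. Of the 14 subunit genes, all had counts and 9 passed the filter. With all 14, the median log2 ratio was 0.08, 9 genes were above 0 and 5 below. Of the 9 that passed, 1 was at least 1.5-fold higher (6.96% of tested genes were) and 0 were as much lower (8.14% of tested genes were). Of all 14, 3 were higher, against 21.3% of the 12804 genes with a count, and 0 were lower, against 18.4%.

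Anapc16, a small subunit, was the one that passed the filter. It had 18, 17 and 17 counts with water and 32, 30 and 14 with phthalate, so the groups overlapped through phthalate library 3. Its log2 ratio was 0.62 (-0.14 to 1.40), and from 0.38 to 0.87 with 1 library left out. The other two, Cdc16 and Cdc23, are named because of their values and had 27 and 11 counts in all. The counting interval of 1 of the 9 excluded 0 and lay above it, against 9.24% of tested genes excluding 0 and 4.82% above it, and on the deposited counts 2 of the 9 did, against 22.7% of tested genes. This was Anapc4, a scaffold subunit named because of its values, with 39, 49 and 42 counts with water and 65, 72 and 42 with phthalate and a log2 ratio of 0.53 (0.07 to 1.02). The most abundant subunits per kb in the water group, Anapc15 and Anapc7, had log2 ratios of 0.08 (-0.32 to 0.47) and -0.35 (-0.88 to 0.19).

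Of 20 other regulators, all were in the table, 18 had counts and 13 passed the filter. Trip13 and Usp44 were at 0 in all libraries. With the 18 genes, the median log2 ratio was -0.18, 4 genes were above 0 and 14 below, against 48.5% of genes with a count below 0. Of the 13 that passed, 10 were below 0 (48.8% of tested genes were) and 0 were past 1.5-fold in either direction. Among the 18, 0 were 1.5-fold higher and 2 lower, against 21.3% and 18.4% of genes with a count. The 2 were Mad2l1bp (38 counts in all) and Otud7b (13 counts in all), both named because of their values. The most abundant per kb were Skp1a, a subunit of the ligase that removes Emi1, and Bub1b, a checkpoint inhibitor of Cdc20. Skp1a had a log2 ratio of -0.20 (-0.35 to -0.05), with its lowest count, 237, in phthalate library 1 and its highest, 622, in phthalate library 3. Bub1b had a log2 ratio of -0.08 (-0.27 to 0.12). Counting intervals of 3 of the 13 lay below 0, those of Skp1a, Mad2l1 and Ube2d3, the last 2 named because of their values, against 4.41% of tested genes. On the deposited counts 4 lay below 0 and 1 above, against 11.1% and 11.6% of tested genes. Mad2l1, a spindle checkpoint protein that holds back Cdc20, had a log2 ratio of -0.52 (-0.99 to -0.02). Its groups overlapped, with 171, 289 and 183 CPM with water and 79.3, 142 and 222 with phthalate. Ube2d3, a ubiquitin-conjugating enzyme, had a log2 ratio of -0.27 (-0.50 to -0.03). Its groups overlapped through phthalate library 3 (775 CPM) and water library 1 (709 CPM). In CPM the groups were apart for 0 of the 13 regulators, against 10.0% of tested genes.

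Of 16 other targets, all had counts and 14 passed the filter. The median log2 ratio of the 16 was -0.16, with 4 genes above 0 and 12 below, and that of the 14 was -0.11, with 4 above and 10 below. Of the 14, 0 were 1.5-fold higher (6.96% of tested genes were) and 1 was lower (8.14%). Of the 16, 0 were higher and 2 lower, against 21.3% and 18.4% of genes with a count. These were Aurkb, a kinase of the chromosomal passenger complex (33 counts in all, below the filter), and Sgo1, a protector of cohesin at the centromere, both named because of their values. Sgo1 had 11, 16 and 18 counts with water and 8, 8 and 2 with phthalate, with a log2 ratio of -1.25 (-2.52 to -0.04), and the pseudogene Gm31532 overlaps it. Its counting interval was the only one of the 14 that excluded 0, against 9.24% of tested genes, and on the deposited counts 3 of the 14 did, against 22.7%. The most abundant targets per kb were Ccnb1, which encodes cyclin B1, and Kif22, a chromosome motor. Ccnb1 had 264, 274 and 360 counts with water and 194, 262 and 394 with phthalate, and a log2 ratio of -0.01 (-0.20 to 0.19). Kif22 had a log2 ratio of 0.25 (-0.02 to 0.52). Cyclin B1 and securin messages, both targets of the same ligase, thus had different ratios, -0.01 and -0.50, although both were lowest in phthalate library 1.

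**Figure D5:**
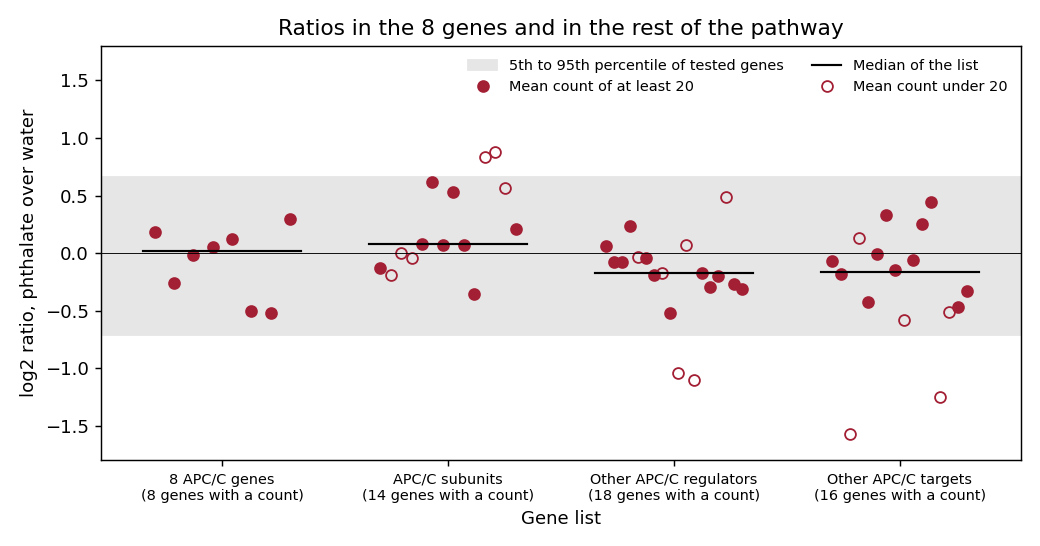
Log2 ratio of phthalate over water for the 8 APC/C genes and the 3 lists of the rest of the pathway, with list medians as lines and the 5th to 95th percentile of tested genes (-0.72 to 0.67) as a grey band. Filled points have a mean count of at least 20, and every point outside the band has fewer counts.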

How the data were processed

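The table that the authors deposited holds raw counts for 25239 gene symbols and 92 ERCC spike-ins. The submitters' processing notes name cutadapt, Trimmomatic, HISAT2, DESeq2 and mm10; the counting tool, annotation and use of strand are not given in the sources used here. Most small counts were even (from 68.0% to 71.1% of counts from 1 to 20 per library), which would follow from counting each mate of a pair, and intervals were computed on halved counts. Counts of the 8 genes, mostly larger, showed no such excess (from 37.5% to 50.0% even per library), so for them the halving is an assumption that widens the intervals.

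ERCC counts stayed out of totals. Genes were filtered with filterByExpr (minimum count 10, minimum total 15; edgeR 4.0.16, R 4.3.3), and group sums were divided by TMM-scaled totals without a pseudocount. Intervals are exact Clopper-Pearson intervals (95%). PCR copies are not independent molecules, so true counting error is wider. The calculation was tested on simulated data. These were Poisson counts without mate pairs or added spread between libraries, so the intervals on halved counts were not checked. Transcript lengths and 3′ ends came from GENCODE M21, promoters from RefSeq GRCm38.p6; 92.6% of genes with a count had a coding length. Promoter letters were searched on both strands, transcript ends on the transcript strand.

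The members, lists and the 1.5-fold threshold were chosen with earlier results of these data known. Named genes are the 8, plus, in each list, those past 1.5-fold with a mean count of at least 20 and the 2 most abundant per kb; others are marked. No test was made, since each group counts as 1 sample. Alternatives were other scalings (library totals, DESeq2 1.42.0 size factors, ERCC), the mean of CPM, totals without Rn45s, other filters and each library left out. The pair ratios, the longest transcript of any type and the median without Pttg1 were chosen after seeing the data.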

Additional observations from a re-analysis of the deposited data

How the results depend on the processing

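Pttg1, Ube2c and Espl1 kept a negative log2 ratio, and Cdc20 and Ube2s a positive one, under all 11 alternatives; the sign changed under 3 for Fbxo43, 2 for Fzr1 and 1 for Fbxo5. With ERCC counts as the scale the median of all tested genes moved from 0.01 to 0.12 and that of the 8 genes to 0.13, a shift of like size. Relative to the median of tested genes, the log2 ratio of Pttg1 lay between -0.63 and -0.31 under the alternatives and that of Ube2c between -0.70 and -0.30. With 1 library left out, the median of the 8 genes was lowest, -0.10, without phthalate library 1 and highest, 0.10, without phthalate library 3. The number of the 8 past 1.5-fold, 0 with all libraries, then ranged from 0 to 2. It was 1 without water library 1, water library 2 or phthalate library 3 and 2 without phthalate library 2, and only Pttg1 and Ube2c, both lower, were among them.

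The share of tested genes past 1.5-fold, 15.1%, was 8.12% at a mean count of at least 20 and 39.7% without a filter, since low counts spread the ratios. The median of the other targets was 0.01 on the ERCC scale and negative otherwise. In the order of the genes per kb, 2 genes changed place with the median coding transcript length and in water library 2 alone. It was 3 with the longest transcript of any type, in water library 1 and in each phthalate library. Pttg1 was first and Fbxo43 last each time.

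No paired analysis was possible because the labels tie no library of one group to a library of the other beyond a shared replicate number, and with each group treated as 1 sample no fit over replicates was made. Depth limits the genes of few counts most: the interval of Cdc20 spans 1.52 on the log2 scale and that of Pttg1 0.36.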
